A study of Mus musculus with 33 samples.

Results

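Messenger RNA levels of 48 cell cycle genes were examined in Kupffer cells (KCs), the resident macs of the liver, and alveolar macs (AMs), the resident macs of the lung airspace, with and without a Cre that deletes *Zeb2*. The genes were taken by symbol, as a list of genes for DNA replication, nucleotide supply, G1 control, mitosis and cytokinesis, from the 24421 genes counted in each sample. All 48 symbols were present in the files, and all 48 passed the filter on low counts in every comparison, so that no member was left out.

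Bulk RNA-seq was available for 33 samples of sorted macs in 6 groups. Control CRE- KCs (n = 6) and control CRE- AMs (n = 5) came from *Zeb2* fl/fl mice without a Cre, littermates that the labels also describe as wild type. Tim4+ CRE+ KCs (n = 6) and Tim4- CRE+ KCs (n = 6) came from mice labelled Clec4f-crexZeb2fl/fl, whose Cre is driven by a KC gene, and were sorted by the surface receptor Tim4. CD11b- CRE+ AMs (n = 5) and CD11b+ CRE+ AMs (n = 5) came from mice labelled Itgax-crexZeb2fl/fl, whose Cre is driven by the CD11c gene and is therefore also active in other CD11c-expressing cells, and were sorted by the integrin CD11b. All 6 groups carried the floxed *Zeb2* alleles, and per the study's methods the mice were 6 to 8 weeks old. The study told CRE+ cells lacking *Zeb2* from CRE+ cells that kept an allele by SiglecF on KCs and by EpCam and CD101 on AMs, and the labels of these samples name Tim4 and CD11b instead, so the share of each kind in a sample is not known here. The labels number the samples without naming the animals, so the p-values measure the spread between these samples.

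A cell enters the cycle when D-type cyclins and their kinases inactivate the retinoblastoma proteins and free the E2F factors, which switch on the genes for replication. Later in the cycle another program, for entry into and exit from mitosis, is switched on through promoter elements bound by the DREAM and B-MYB complexes. Resident macs renew themselves at a low rate by local division, and both KCs and AMs can refill an emptied niche in this way.

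The promoters of the genes were read for elements of both programs, and 6 windows are shown for genes on which the results below turn. RefSeq promoter windows (GRCm38.p6, 250 bases before to 50 bases after the start site) were available for 39 of the 48 genes. Capitals mark every match, on either strand, to CCAAT, to the cell cycle homology region (TTTGAA or TTCGAA) and to an E2F element (TTTCGCGC, TTTGGCGC or TTTCCCGC). In *Mcm5* the 2 E2F matches overlap.
Ccnb2, a mitotic cyclin gene, chr9:70421505-70421804, minus strand: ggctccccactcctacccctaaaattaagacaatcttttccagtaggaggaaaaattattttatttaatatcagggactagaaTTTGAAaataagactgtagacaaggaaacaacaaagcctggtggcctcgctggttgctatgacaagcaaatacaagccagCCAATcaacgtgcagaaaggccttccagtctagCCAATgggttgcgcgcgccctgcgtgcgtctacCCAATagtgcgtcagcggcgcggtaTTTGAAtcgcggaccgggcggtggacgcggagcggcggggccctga
Bub1, a spindle checkpoint kinase gene, chr2:127831810-127832109, minus strand: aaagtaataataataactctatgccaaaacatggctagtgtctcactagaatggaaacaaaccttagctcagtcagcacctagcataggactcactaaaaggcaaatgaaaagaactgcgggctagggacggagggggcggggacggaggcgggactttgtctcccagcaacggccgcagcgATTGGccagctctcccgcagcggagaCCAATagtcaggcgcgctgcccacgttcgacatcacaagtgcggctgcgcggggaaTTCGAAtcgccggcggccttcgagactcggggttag
Cdca3, a gene for mitotic entry, chr6:124829926-124830225, plus strand: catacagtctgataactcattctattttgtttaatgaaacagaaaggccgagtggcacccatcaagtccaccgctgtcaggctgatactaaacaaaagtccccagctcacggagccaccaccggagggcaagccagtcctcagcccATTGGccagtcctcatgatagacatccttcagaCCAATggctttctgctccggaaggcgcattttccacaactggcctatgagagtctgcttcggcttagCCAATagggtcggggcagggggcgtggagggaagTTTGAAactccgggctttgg
Mki67, the gene of the proliferation antigen Ki-67, chr7:135716330-135716629, minus strand: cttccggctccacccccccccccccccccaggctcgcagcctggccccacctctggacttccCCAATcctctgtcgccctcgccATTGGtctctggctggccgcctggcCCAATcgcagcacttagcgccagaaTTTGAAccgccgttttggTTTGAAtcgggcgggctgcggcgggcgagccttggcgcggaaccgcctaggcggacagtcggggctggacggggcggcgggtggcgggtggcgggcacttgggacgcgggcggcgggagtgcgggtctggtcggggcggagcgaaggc
E2f8, the gene of an E2F repressor, chr7:48881547-48881846, minus strand: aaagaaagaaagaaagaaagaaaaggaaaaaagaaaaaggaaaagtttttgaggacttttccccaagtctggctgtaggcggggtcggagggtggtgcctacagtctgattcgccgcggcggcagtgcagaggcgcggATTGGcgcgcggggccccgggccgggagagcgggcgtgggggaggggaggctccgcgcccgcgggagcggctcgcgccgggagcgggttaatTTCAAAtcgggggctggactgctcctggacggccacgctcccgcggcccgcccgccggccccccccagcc
Mcm5, a gene of the replicative helicase, chr8:75109259-75109558, plus strand: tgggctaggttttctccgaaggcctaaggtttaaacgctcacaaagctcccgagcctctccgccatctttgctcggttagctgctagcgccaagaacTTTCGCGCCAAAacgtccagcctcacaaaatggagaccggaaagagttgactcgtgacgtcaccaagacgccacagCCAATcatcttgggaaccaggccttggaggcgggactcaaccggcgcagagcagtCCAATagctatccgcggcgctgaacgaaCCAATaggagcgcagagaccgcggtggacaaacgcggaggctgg

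CCAAT was matched in the windows of 29 of the 39 genes (74.4%), compared with 37.9% of the windows of all 27025 genes in the table. The cell cycle homology region was matched in 20 of 39 (51.3%), compared with 19.4% of all genes, and each of these 20 windows also held a CCAAT match. An E2F element was matched in 8 of 39 (20.5%), compared with 1.91% of all genes. The cell cycle homology region was found in 6 of 7 mitotic cyclin and kinase genes, whereas an E2F element was found in 6 of 8 replication genes. *Mki67* held 3 CCAAT and 2 TTTGAA matches, as many of each as *Ccnb2*. These counts describe letters in a window and not sites of binding.

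Each sample had between 9837240 and 24332306 reads counted on genes, and Tim4- CRE+ KC replicate 1 had the fewest. Levels are given as CPM, the counts of a gene scaled to a fixed library total with TMM-scaled library sizes. A gene was called changed at an adjusted p under 0.05 with an absolute log2 fold change above 1, both from the quasi-likelihood fit in edgeR, with Benjamini-Hochberg adjusted p-values over all genes tested. Shares in percent after the word "background" are the shares of all tested genes that met the same criterion in the same direction. This share was not counted for an unadjusted p or for fits that left out 1 sample. Nor was it counted for the adjusted p alone outside the main fit of a comparison. *Zeb2* itself had means of 282 ± 37.6 CPM in control KCs (SD, n = 6) and 195 ± 17.1 CPM in control AMs (SD, n = 5), and 174 ± 25.9, 169 ± 15.4, 105 ± 11.8 and 62.5 ± 7.79 CPM in Tim4+ KCs, Tim4- KCs, CD11b- AMs and CD11b+ AMs. Every CRE+ sample lay below every control of its tissue. The floxed allele leaves a shortened *Zeb2* transcript, so these counts check the labels only in part. KC marker genes summed to between 22665 and 24788 CPM in control KCs and to at most 13.6 CPM in any AM sample.

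To compare samples on the whole set, the CPM of 44 genes were summed, leaving out *Ccnd1*, *Ccnd2*, *Ccnd3* and *Cdkn1a*, which act in G1 and are not periodic mitotic or S phase genes. The sum was highest on average in CD11b- CRE+ AMs, with 1884 ± 246 CPM (SD, n = 5). It was 1614 ± 167 CPM in control AMs and 1296 ± 208 CPM in CD11b+ CRE+ AMs (SD, n = 5 each). In KCs it was 1255 ± 587 CPM in controls, 1226 ± 247 CPM in Tim4+ and 1636 ± 281 CPM in Tim4- samples (SD, n = 6 each), and the SD of the controls was larger than in any other group. CD11b- AMs had the highest mean of the 6 groups for 27 of the 44 genes, and CD11b+ AMs and control KCs the lowest for 15 and 16. In the order of control, Tim4+ and Tim4- KCs, *Mki67* had means of 18.5 ± 7.98, 14.2 ± 5.52 and 19.7 ± 4.98 CPM (SD, n = 6), *Top2a*, the topoisomerase gene, 29.7 ± 26.6, 27.4 ± 6.58 and 36.6 ± 11.1 CPM, *Cdk1* 27.9 ± 18.8, 27.8 ± 8.67 and 38.4 ± 14.2 CPM, and *Mcm5* 84.0 ± 48.9, 81.5 ± 21.7 and 123 ± 25.1 CPM. In the order of control, CD11b- and CD11b+ AMs, *Mki67* had 24.3 ± 1.40, 14.4 ± 6.0 and 16.7 ± 5.11 CPM (SD, n = 5), *Top2a* 37.5 ± 8.95, 44 ± 11.6 and 29.9 ± 9.10 CPM, *Cdk1* 25.1 ± 4.46, 35.4 ± 6.58 and 20.5 ± 4.94 CPM, and *Mcm5* 58.7 ± 9.25, 70.4 ± 13.4 and 49.9 ± 10.4 CPM. Of the genes just listed *Mki67* alone had its highest AM mean in the controls. Other members did so too, namely *Mcm3*, *Mcm4*, *Cdc6*, *Cdt1*, *E2f8*, *Ccne1*, *Bub1b*, *Cenpe*, *Cenpf*, *Ccnd2* and *Ccnd3*. The counts come from sorted cells in bulk, in which fewer cycling cells and less of these RNAs per cycling cell cannot be told apart. The exons of 13 of the 48 genes overlap another counted gene (*Mcm7*, *Gins2*, *Tk1*, *Ccne2*, *Ccnd2*, *Ccnd3*, *Ccna2*, *Cdca8*, *Kif20a*, *Nusap1*, *Prc1*, *Ube2c* and *Cdc20*), each with a gene on the opposite strand. The sources used here do not say whether counting used strand, so the values of these 13 genes are uncertain to that extent.

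**Figure D1:**
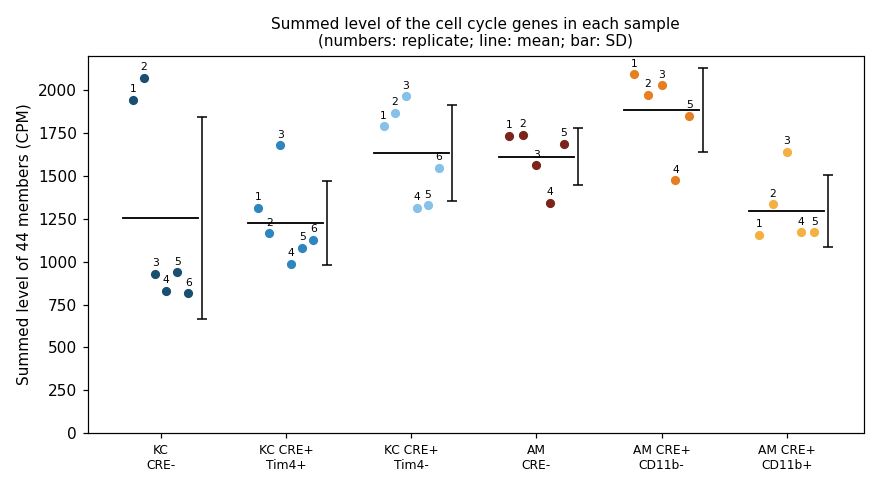
Summed CPM of 44 cell cycle genes (y axis) in each of the 33 samples (points, numbered by replicate) of the 6 groups (x axis), with the mean (line) and SD (bar). Control KC replicates 1 and 2 stand at 1943 and 2074 CPM, whereas the other 4 control KC samples lie between 816 and 938 CPM.

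The control KC samples did not form a single level. Replicates 1 and 2 had sums of 1943 and 2074 CPM, and replicates 3 to 6 had 929, 830, 938 and 816 CPM. Each of the 44 genes had its highest control KC value in replicate 1 or 2, 14 of them in replicate 1 and 30 in replicate 2. The mitotic cyclin gene *Ccna2* showed the pattern, with 43.2 and 48 CPM in replicates 1 and 2 and between 6.85 and 13.9 CPM in the other 4 samples. *Mki67* had 24.8 and 31.6 CPM there and between 11.0 and 15 CPM in the others. The D-type cyclin gene *Ccnd1* did not, with 51.9 and 51.2 CPM in replicates 1 and 2 within a range of 43.1 to 56.6 CPM. The labels give no date, run or sex that sets these samples apart. Their summed monocyte markers were the highest of the control KCs (303 and 301 CPM, compared with 77.4 to 224 CPM in the others), and their T and NK cell markers (5.02 and 6.79 CPM) lay within the range of the others (3.92 to 6.89 CPM). Their part in the result was not tested.

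**Figure D2:**
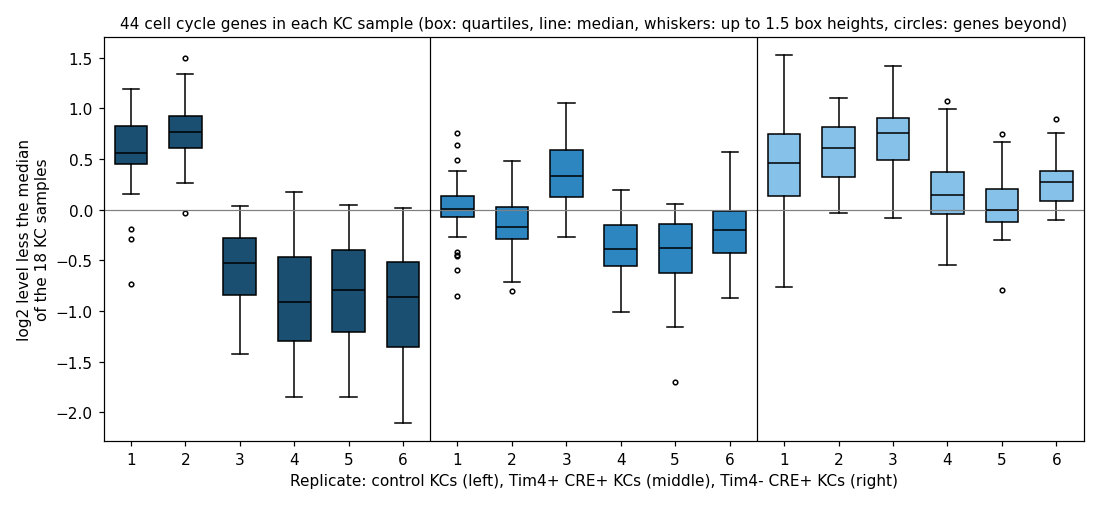
Levels of 44 cell cycle genes in each of the 18 KC samples (x axis, replicate number, by group), as log2 CPM (0.5 added) less the gene's median over all KC samples (y axis); boxes are quartiles and lines medians. The medians of control KC replicates 1 and 2 are above 0 and those of control replicates 3 to 6 below it, while the median of Tim4- CRE+ KC replicate 5 is close to 0 and those of the other 5 Tim4- samples are above it.

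The first comparison was of control KCs with control AMs. Per the study's methods liver and lung were digested with different enzymes, so tissue and isolation cannot be told apart here. Control KC replicates 5 and 6 held 2706 and 3663 counts of Y-linked genes, and each control AM sample held at most 1. In KCs 2 of the 48 genes were called higher and 9 lower (background 20.9% and 12.4%). The median log2 fold change of the 48 genes was -0.56, compared with 0.03 over all 12145 genes tested. At the adjusted p alone 2 were higher and 14 lower (background 33.3% and 29.9%), and 2 lay above and 6 below the AMs in every sample (background 25.1% and 23.8%). The called genes were mostly regulators of G1, in which 1 of 9 genes was higher and 6 were lower, whereas none of the 10 replication genes was called by edgeR (2 were lower at the adjusted p alone).

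The D-type cyclins, which bind CDK4 and CDK6 to drive G1, differed between the tissues. *Ccnd1* (chromosome 7, 144929931 to 144939925, minus strand, GRCm38) ranged from 43.1 to 56.6 CPM in control KCs, with a median of 51.5. In the 5 control AM samples it had 2.15, 1.27, 0.785, 0.626 and 0.920 CPM. The groups did not overlap, and *Ccnd1* was 44.8-fold higher in KCs (log2 fold change 5.49, SE 0.24, adjusted p = 8.4e-11, edgeR). *Ccnd2* (chromosome 6, 127125162 to 127152193, minus strand) had the reverse pattern, from 15.9 to 51.7 CPM in KCs (median 28.7) against 256, 269, 265, 268 and 207 CPM in AMs. It was 8.02-fold lower in KCs (log2 fold change -3.00, SE 0.21, adjusted p = 1.57e-08, edgeR). *Ccnd3* (chromosome 17, 47505051 to 47599691, plus strand) was lower in every KC sample (log2 fold change -0.79, SE 0.13, adjusted p = 9e-05, edgeR), which did not reach the fold threshold. Per kb of exon, *Ccnd1* and *Ccnd3* had similar levels in control KCs (10.9 ± 1.0 and 12.8 ± 2.46 CPM per kb, SD, n = 6) and *Ccnd2* was lower (3.29 ± 1.24), whereas in control AMs *Ccnd2* and *Ccnd3* had 26.9 ± 2.78 and 22.6 ± 3.09 CPM per kb (SD, n = 5) and *Ccnd1* 0.244 ± 0.129.

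*Cdkn1a* (chromosome 17, 29090976 to 29100727, plus strand) encodes p21, an inhibitor of cyclin-dependent kinases. It had from 10.4 to 24.2 CPM in control KCs (median 16.9) and 392, 412, 463, 560 and 485 CPM in control AMs. It was thus 26.8-fold lower in KCs (log2 fold change -4.74, SE 0.18, adjusted p = 1.26e-11, edgeR), with no overlap.

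Of the E2F genes, *E2f2*, an activator, ranged from 1.14 to 11.7 CPM in KCs (median 3.55) and had 41.8, 44.5, 36.9, 30.1 and 38.2 CPM in AMs (log2 fold change -2.94, SE 0.42, adjusted p = 2.73e-05, edgeR). The repressor *E2f8* was also called lower in KCs (log2 fold change -1.13, adjusted p = 0.0476, edgeR), as were the cyclin E genes *Ccne1* (-1.46) and *Ccne2* (-1.41), which act at the entry into S phase. The calls of *E2f8* and *Ccne2* were lost in 10 and 8 of the 11 fits that left out 1 sample (adjusted p up to 0.101 and 0.0745). In nucleotide supply, *Tk1*, the gene of thymidine kinase, was 2.90-fold higher in KCs (50.6 to 120.5 CPM, median 62.1, against 28.9, 33.1, 25, 20.3 and 29.7 CPM; adjusted p = 7.41e-05, edgeR). *Rrm2*, a subunit of ribonucleotide reductase, was lower (log2 fold change -1.36, SE 0.42). *Tk1* shares exonic sequence with *Afmid*, and *Ccne2* with *Ints8*. Of the mitotic genes, the checkpoint kinase gene *Bub1b* (log2 fold change -1.62, SE 0.34) and the spindle gene *Nusap1* (-1.44, SE 0.48) were called lower. *Top2a*, *Cdk1*, *Mki67* and *Mcm5* overlapped between the tissues, with log2 fold changes of -0.31, 0.18, -0.37 and 0.54. Control KC replicates 1 and 2 were also left out, a choice made after their levels were seen and one that lowers the KC group by construction. Then 29 genes were called lower (1583 of all 12049 genes tested). Without replicate 2 alone there were 17.

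**Figure D3:**
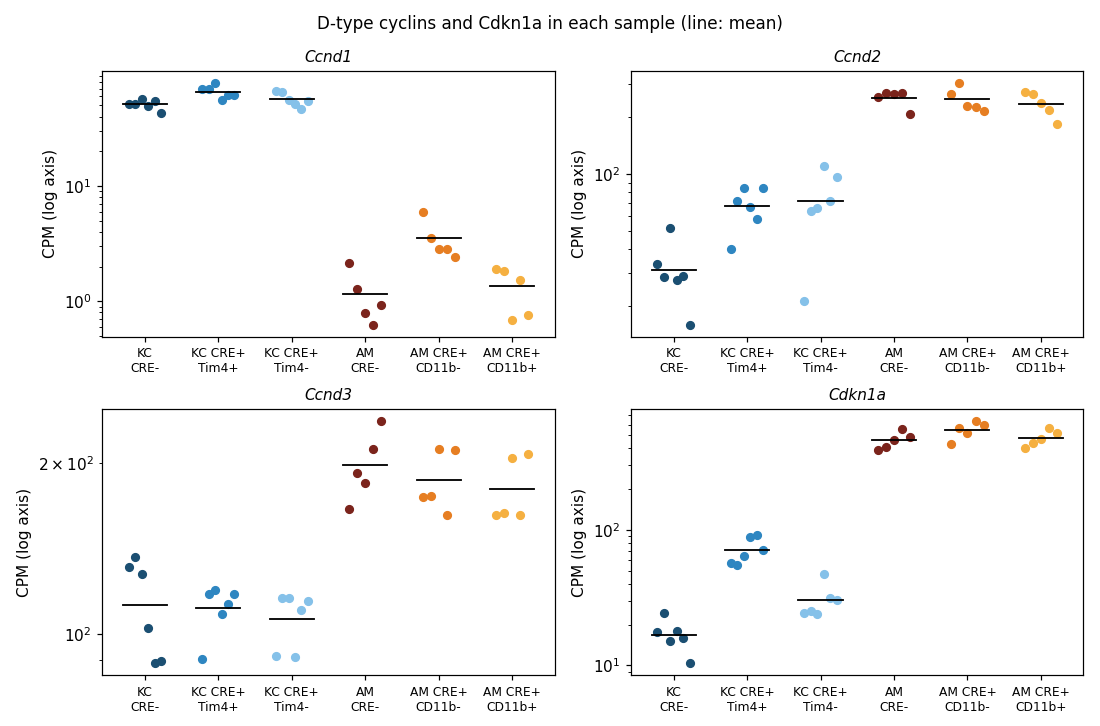
CPM (log axis) of *Ccnd1*, *Ccnd2*, *Ccnd3* and *Cdkn1a* in each of the 33 samples (points) of the 6 groups (x axis), with the mean (line). *Ccnd1* separates KCs from AMs in every sample, and *Cdkn1a* in Tim4+ CRE+ KCs lies between 55.3 and 92.1 CPM, above every control KC sample.

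In the liver, each Tim4 sort of CRE+ KCs was compared with control KCs, whose labels name no Tim4 sort. Loss of *Zeb2*, the sort and the share of cells lacking *Zeb2* cannot be told apart here. In Tim4+ CRE+ KCs 2 of the 48 genes were called higher and none lower (background 1.94% and 0.376%). With no adjustment (p under 0.05) there were 3 higher and 0 lower, and limma-voom and DESeq2 called none lower. The median log2 fold change was -0.03, compared with 0.00 over all genes tested. At the adjusted p alone 3 genes were higher and none lower (background 3.63% and 2.46%), and 1 lay above the controls in every sample and none below (background 3.1% and 1.76%). The called genes were *Cdkn1a* and *Ccnd2*, both G1 regulators, and none of the 39 genes outside the G1 list passed the adjusted p. *Mki67*, *Top2a*, *Mcm5* and *Cdk1* had log2 fold changes of -0.40, -0.13, -0.06 and -0.02.

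*Cdkn1a* had 57.4, 55.3, 64.5, 89.2, 92.1 and 71.7 CPM in the 6 Tim4+ CRE+ KC samples. Each of these lay above all control KCs, and the gene was 4.19-fold higher (log2 fold change 2.07, SE 0.20, adjusted p = 4.09e-07, edgeR). In Tim4- CRE+ KCs it had 24.6, 25.3, 23.9, 47.0, 31.7 and 30.7 CPM. The lowest of these, at 23.9 CPM, lay just under the highest control at 24.2 CPM, and the difference from controls passed the adjusted p (log2 fold change 0.84, SE 0.19, adjusted p = 0.003, edgeR) and not the fold threshold. Compared directly, *Cdkn1a* fell by 1.23 on the log2 scale from Tim4+ to Tim4- CRE+ KCs (SE 0.19, adjusted p = 0.000213, edgeR), with no overlap, and it was the only 1 of the 48 genes called lower (background 5.01%) and the 1 gene below in every sample (background 4.46%). With the replicate number as a block, which pairs these sorts, it was still the 1 gene called lower and no gene was called higher. *Ccnd2* had from 40.3 to 84.4 CPM in Tim4+ and from 21.4 to 110.3 CPM in Tim4- CRE+ KCs, with medians of 69.2 and 69.1. It was called higher than in controls in both (log2 fold changes 1.11 and 1.2, SE 0.29 each, adjusted p = 0.0241 and 0.00457, edgeR), although the ranges overlapped. In Tim4+ KCs this call was lost in 6 of 12 fits that left out 1 sample (adjusted p up to 0.0566), namely control KC replicate 2, 4, 5 or 6, or Tim4+ KC replicate 3 or 6, and 1 gene in all was then called without any of these but control KC replicate 2. *Ccnd1* had a log2 fold change of 0.34 in Tim4+ and 0.14 in Tim4- CRE+ KCs (adjusted p = 0.049 and 0.356, edgeR), and *Ccnd3* of -0.04 and -0.10 (adjusted p = 0.922 and 0.568).

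In Tim4- CRE+ KCs 3 genes were called higher and none lower (background 3.43% and 5.39%), and 45 of the 48 fold changes were positive. Unadjusted p-values under 0.05 were found for 11 higher and 0 lower genes, and limma-voom and DESeq2 called none lower. limma-voom called 9 higher and DESeq2 3 (437 and 472 of all 12500 genes tested). The median log2 fold change was 0.53, compared with -0.03 over all 12500 genes tested. Past the adjusted p alone 6 were higher and none lower (background 12.2% and 13.2%). This number was 18 with the replicate number as a block and ranged from 4 to 23 when 1 sample was left out, with 15 and 23 without control KC replicates 1 and 2. No gene separated the groups in every sample (background 5.68% above and 5.14% below). *E2f8* (chromosome 7, 48866429 to 48881596, minus strand) had from 0.993 to 6.66 CPM in control KCs (median 1.59) and 7.89, 8.47, 7.61, 4.05, 6.93 and 7.41 CPM in Tim4- CRE+ KCs. It rose 2.95-fold (log2 fold change 1.56, SE 0.41, adjusted p = 0.00748, edgeR), and control KC replicate 2 was the 1 control within the range of the Tim4- samples. *Cdca8*, a subunit of the chromosomal passenger complex, had from 4.33 to 18.5 CPM in controls (median 7.12) and from 14.5 to 23.2 CPM in Tim4- samples (median 19.3). Its log2 fold change of 1.003 (SE 0.29, adjusted p = 0.0141, edgeR) lay at the fold threshold, and the call was lost in 7 of 12 fits that left out 1 sample (log2 fold changes of 0.86 or more). The replicative helicase gene *Mcm6* and the mitotic entry gene *Cdca3* passed the adjusted p alone (log2 fold changes 0.58 and 0.82). *Mcm5* had 123 ± 25.1 CPM in Tim4- and 84.0 ± 48.9 CPM in control KCs (SD, n = 6 each), a difference that did not pass the test (adjusted p = 0.157, edgeR). It passed in 2 of 12 fits that left out 1 sample, namely control KC replicate 1 or 2 (adjusted p of 0.0317 to 0.298 over the 12, edgeR). The adjusted p was 0.668 for *Top2a*, 0.363 for *Cdk1* and 0.862 for *Mki67* (edgeR), with log2 fold changes of 0.29, 0.45 and 0.08.

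How many genes differed between CRE+ and control KCs turned on the control samples described above. Without control KC replicates 1 and 2, 30 genes were called higher in Tim4- CRE+ KCs and 9 in Tim4+ CRE+ KCs. Of all 12776 genes tested in this fit, 514 and 227 were called higher. The median log2 fold changes of the 48 genes were then 1.2 and 0.68. At the adjusted p alone 41 and 14 of the 48 passed, for which the share over all genes was not counted. Since these samples were chosen for their high levels of the same genes, leaving them out raises these counts by construction. Without control replicate 1 or replicate 2 alone, 10 genes were called higher in Tim4- CRE+ KCs. Without KC replicates 5 and 6 of all 3 groups, which held 2706 to 3663 counts of 4 Y-linked genes where every other sample had at most 4, the counts were 0 in Tim4- and 1 in Tim4+ CRE+ KCs. Of all 12520 genes tested in that fit, 390 and 162 were called higher. The 2 CRE+ groups share the control KCs.

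Tim4- and Tim4+ CRE+ KCs can be compared without these controls. Here 44 of the 48 fold changes were positive and the median was 0.46, compared with 0.01 over all genes tested, while no gene was called higher (background 0.44%). At an unadjusted p under 0.05 there were 11 higher, limma-voom called none and DESeq2 called 1 (71 of all 12500 genes tested). Past the adjusted p alone 1 gene was higher and 1 lower (background 3.84% and 7.62%). In 7 of the 12 fits that left out 1 sample none was higher, and 5 were with all 33 samples in the fit. *Cdca3* was the higher one, with from 10 to 18.7 CPM in Tim4- (median 14.5) and from 6.07 to 11.0 CPM in Tim4+ CRE+ KCs (median 7.27; log2 fold change 0.93, SE 0.27, adjusted p = 0.0283, edgeR). Every Tim4- sample lay above every Tim4+ sample for *Ccnb2*, *Ccne2* and *E2f2* (3 of 48 genes, background 1.31%). The 9 mitotic cyclin and kinase genes had log2 fold changes from 0.47 to 0.77, none of which passed the adjusted p. The log2 fold changes of *Mki67*, *Top2a* and *Mcm5* were 0.48, 0.42 and 0.60 and those of *Ccnd1*, *Ccnd2* and *Ccnd3* -0.21, 0.09 and -0.06, none past the adjusted p. Without Tim4+ KC replicate 3 or Tim4- KC replicate 5 alone, 1 gene was called higher. Replicate 3 of both groups had the highest summed level of its group (1679 and 1966 CPM) and also the highest monocyte markers (331 and 806 CPM) and T and NK cell markers (32.3 and 56.9 CPM). Without both of these samples the median was 0.58 and 1 gene passed the adjusted p in each direction. Over all samples, the summed monocyte markers had 282 to 806 CPM in Tim4- and 94.0 to 331 CPM in Tim4+ CRE+ KCs (medians 366 and 147), and the B cell markers 50.3 to 126 and 23.1 to 54.1 CPM. The liver endothelium markers had 403 to 525 CPM in Tim4- and 919 to 2456 CPM in Tim4+ samples (medians 450.0 and 1198). The part of these markers in the shift of the cycle genes was not tested.

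In the lung the medians of the 2 CRE+ groups had opposite signs against the shared control AMs, whose labels name no CD11b sort. Loss of *Zeb2*, the sort and the share of cells lacking *Zeb2* cannot be told apart in the lung either. CD11b- CRE+ AMs had 2 genes called higher and none lower (background 3.98% and 2.51%), with a median log2 fold change of 0.24. At the adjusted p alone 12 genes were higher and 2 lower (background 13.3% and 12.4%). When 1 sample was left out these were 6 to 15 and 0 to 2, with 6 higher without CD11b- replicate 1 or 3 or control replicate 4 and 7 without control replicate 5. With all 33 samples in the fit 3 were higher and 0 lower. Before adjustment these were 17 and 2 (p under 0.05), and limma-voom and DESeq2 called none lower. Of the 12 genes, 5 were mitotic cyclins or kinases, 2 spindle or kinetochore genes and 2 from the list named mitotic exit and APC/C, which also holds *Cdca3*. In every sample 5 genes lay above the controls, *Aurka*, *Ccnb2*, *Ccnd1*, *Cdca3* and *Plk1* (background 9.42%). *Ccnb2* (chromosome 9, 70407692 to 70421547, minus strand), the gene of cyclin B2, had 31.2, 27.6, 24.6, 25.4 and 37.2 CPM in control AMs and 66.3, 64.7, 72.8, 42.6 and 60.6 CPM in CD11b- AMs. It rose 2.104-fold with no overlap (log2 fold change 1.07, SE 0.18, adjusted p = 0.000205, edgeR). A pseudogene of *Ccnb2* is annotated, with which reads could have been shared. *Ccnd1* rose from a mean of 1.15 to 3.52 CPM (log2 fold change 1.61, SE 0.43, adjusted p = 0.00944, edgeR), with values of 5.99, 3.52, 2.86, 2.83 and 2.43 CPM. Every value lay above the controls but far below the 43.1 CPM of the lowest control KC. *Ccnd2*, *Ccnd3* and *Cdkn1a* had log2 fold changes of -0.03, -0.09 and 0.25 (adjusted p = 0.902, 0.605 and 0.105, edgeR).

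*Mki67* (chromosome 7, 135689784 to 135716361, minus strand) and the licensing factor gene *Cdt1* (log2 fold change -0.45) were the 2 genes lower at the adjusted p in CD11b- AMs. *Mki67* had 24.6, 23.4, 24.7, 26.3 and 22.6 CPM in control AMs and 14.4, 22.2, 5.38, 14.1 and 15.7 CPM in CD11b- AMs, and every CD11b- sample lay below every control (1 of 48 genes, background 8.59%). The log2 fold change was -0.76 (SE 0.26, adjusted p = 0.0383, edgeR), past the adjusted p and not the fold threshold. It did not pass in 9 of 10 fits that left out 1 sample (adjusted p of 0.00965 to 0.0739 over the 10, edgeR), nor with all 33 samples in the fit (adjusted p = 0.0999, edgeR). *Cdk1*, whose product drives mitosis, was higher in the same samples (log2 fold change 0.49, SE 0.17, adjusted p = 0.0347, edgeR). This was lost in 7 of 10 fits that left out 1 sample (adjusted p of 0.0104 to 0.0927 over the 10, edgeR) and with all 33 samples (adjusted p = 0.314, edgeR). *Top2a* and *Mcm5* had 0.23 and 0.26 (adjusted p = 0.466 and 0.198, edgeR). In CD11b- replicate 3, where *Mki67* was lowest at 5.38 CPM, *Ccnb2* was highest at 72.8 CPM. In CD11b+ AMs *Mki67* had 15.5, 17.4, 21.4, 20.7 and 8.64 CPM, again below every control, and the difference did not pass the test (log2 fold change -0.55, SE 0.26, adjusted p = 0.0959, edgeR).

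CD11b+ CRE+ AMs had 3 genes called lower than in control AMs and none higher (background 5.68% and 9.57%), with a median log2 fold change of -0.41. At the adjusted p alone 20 genes were lower and 1 higher (background 20.5% and 22.8%), and limma-voom and DESeq2 called none higher. Before adjustment these were 24 and 2 (p under 0.05). With all 33 samples in the fit, 8 were lower and 0 higher at the adjusted p. In every sample 6 genes lay below the controls and 1 above (background 14.1% and 18.5%). *Tk1* fell 2.34-fold, to 11.0, 13.8, 17.8, 7.96 and 8.23 CPM, all below the control range of 20.3 to 33.1 CPM (adjusted p = 4.29e-05, edgeR). The kinetochore gene *Cenpf* (log2 fold change -1.38, SE 0.45) and *E2f8* (-1.12, SE 0.40) were called at low levels, with means of 1.68 and 2.44 CPM in CD11b+ AMs. Both overlapped with controls. Leaving out control AM replicate 3 ended the call of *Cenpf* (adjusted p = 0.0512, edgeR), and leaving out 1 sample ended that of *E2f8* in 5 of 10 fits (adjusted p up to 0.0768). Of the 10 replication genes, 7 were lower at the adjusted p, with *Gins2*, a part of the replicative helicase, at -0.82 and *Cdt1* at -0.77. *E2f2* was the 1 gene that was higher (log2 fold change 0.47, SE 0.13, adjusted p = 0.00594, edgeR), above controls in every sample. *Mcm5*, *Top2a*, *Cdk1* and the 3 D-type cyclins did not pass the adjusted p (log2 fold changes -0.25, -0.34, -0.31, 0.21 for *Ccnd1*, -0.11 for *Ccnd2* and -0.15 for *Ccnd3*), and *Cdkn1a* had 0.04.

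The 2 CRE+ AM groups were then compared directly. In CD11b+ AMs 11 of the 48 genes (22.9%) were called lower than in CD11b- AMs and none higher (background 3.3% and 6.85%). At the adjusted p alone 29 (60.4%) were lower and none higher (background 16.6% and 19.8%). With 1 sample left out 25 to 35 were lower, and with all 33 samples in the fit 16. At an unadjusted p under 0.05 there were 36 lower and 0 higher, and limma-voom and DESeq2 called none higher. The median log2 fold change was -0.60, compared with 0.02 over all 11573 genes tested, and 13 genes were below in every sample (27.1%, background 10.6%) and none above (background 15.3%). All 9 mitotic cyclin and kinase genes were lower at the adjusted p, as were 6 of 11 spindle genes, 6 of 10 replication genes and 3 of 4 genes of nucleotide supply.

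*Ccnb2* had 18.7, 16.8, 28.2, 12.4 and 14.9 CPM in CD11b+ AMs, each below the lowest CD11b- sample at 42.6 CPM. It was 3.40-fold lower (log2 fold change -1.77, SE 0.19, adjusted p = 4.79e-07, edgeR). *Tk1* fell by 1.49 on the log2 scale (SE 0.20, adjusted p = 8.14e-06, edgeR), from 35.9, 34.1, 37.6, 23.7 and 33.2 CPM in CD11b- AMs. The checkpoint kinase gene *Bub1* (chromosome 2, 127801122 to 127831865, minus strand) had 31.7, 22.6, 16.4, 14.0 and 13.9 CPM in CD11b- and 9.82, 9.76, 10.5, 4.67 and 5.08 CPM in CD11b+ AMs. It was 2.49-fold lower, with no overlap (SE 0.27 on the log2 scale, adjusted p = 0.000813, edgeR). *Cenpa* (chromosome 5, 30666777 to 30674830, plus strand), the gene of the centromeric histone, had 45.8, 46.0, 41.3, 28.1 and 44.1 CPM in CD11b- and 14.6, 19.1, 19.1, 14.2 and 17.2 CPM in CD11b+ AMs (log2 fold change -1.30, SE 0.15, adjusted p = 1.14e-06, edgeR). *Kif20a*, a kinesin of cytokinesis (-1.32), *Cdca3* (-1.2) and *Birc5*, the gene of survivin (-1.17), were also lower without overlap. *Ccnd1* was lower in every CD11b+ sample (log2 fold change -1.40, SE 0.43, adjusted p = 0.0152, edgeR), a call that ended without CD11b- replicate 1 (adjusted p = 0.0676).

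*Cenpf* (log2 fold change -1.23), *Ccnb1* (-1.02) and *Ccna2* (-1.01), genes of a kinetochore protein and of cyclins B1 and A2, completed the 11. Leaving out 1 sample took *Ccnb1* and *Ccna2* just under the fold threshold in 6 and 5 of 10 fits (adjusted p at most 0.00352), and the call of *Cenpf* was lost in 6 of 10 (adjusted p up to 0.138). Without CD11b- replicate 1, 7 genes were called lower. Below the fold threshold, *Cdk1* had -0.80 on the log2 scale (SE 0.17), *Top2a* of -0.57 (SE 0.21) and *Mcm5* of -0.51 (SE 0.14), each past the adjusted p, which *Top2a* missed in 5 of 10 fits that left out 1 sample. *Mki67* had 0.21 (SE 0.26, adjusted p = 0.584, edgeR) and was 1 of the 2 genes of the 48 with a positive value, and *Ccnd2*, *Ccnd3* and *Cdkn1a* had -0.09, -0.07 and -0.21 (adjusted p = 0.574, 0.661 and 0.153).

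**Figure D4:**
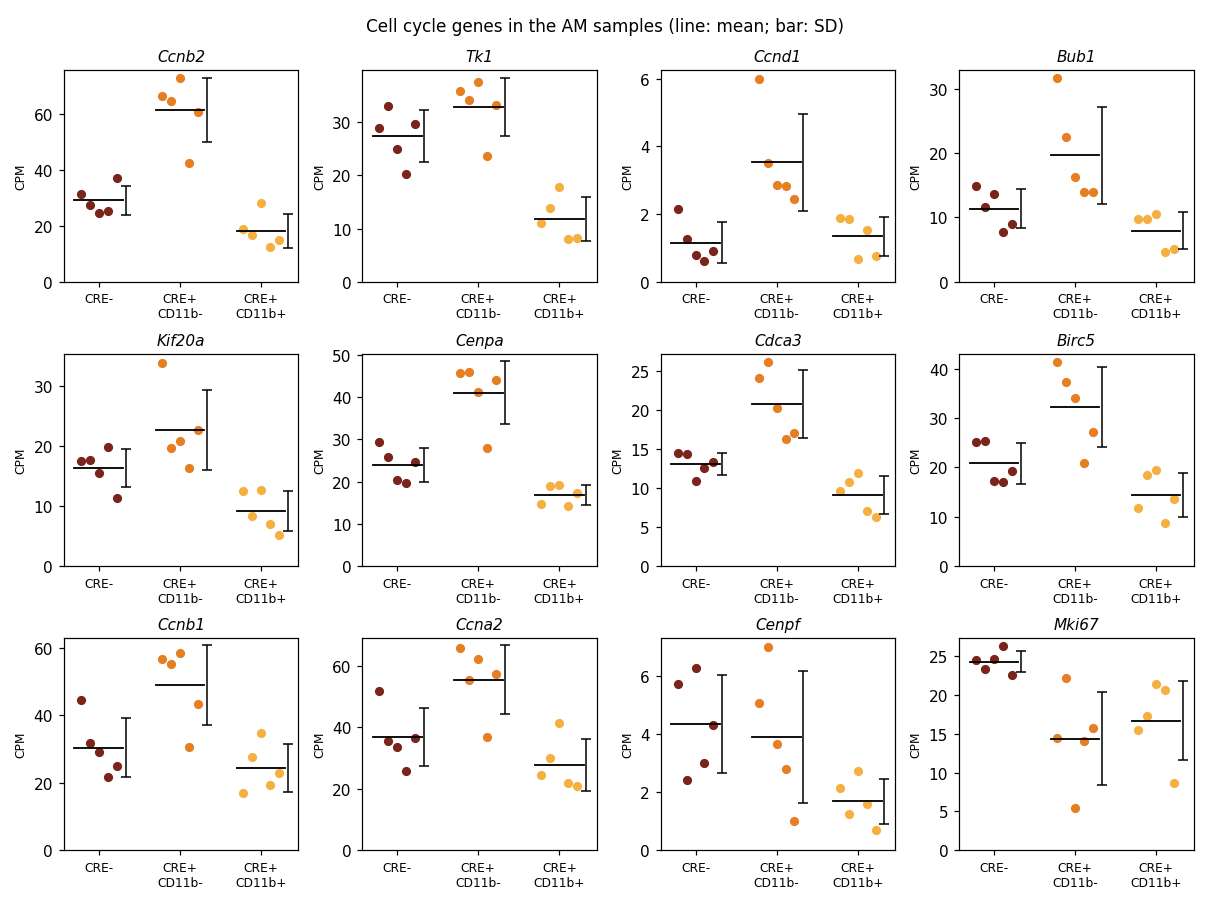
CPM (y axes, from 0) of the 11 genes called lower in CD11b+ than in CD11b- CRE+ AMs, and of *Mki67*, in the 15 AM samples (points) of the 3 groups (x axes), with the mean (line) and SD (bar). *Ccnb2* lies between 42.6 and 72.8 CPM in CD11b- AMs and at most at 28.2 CPM in CD11b+ AMs, whereas *Mki67* is highest in control AMs.

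Genes that mark other cells moved with the AM groups. Summed neutrophil markers had 36.1 to 60.3 CPM in control AMs, 806 to 2426 CPM in CD11b- AMs and 8224 to 10462 CPM in CD11b+ AMs, for 6 of 7 listed genes present in the files. Most of this came from *S100a8* and *S100a9* (means of 4464 and 3684 CPM in CD11b+ AMs). The receptor genes *Cxcr2* and *Csf3r* had means of 3.27 and 38.6 CPM in control, 151 and 114 CPM in CD11b- and 577 and 372 CPM in CD11b+ AMs, and *Mmp9* and *Retnlg* averaged 14.8 and 2.85 CPM in CD11b+ AMs. The 7 listed genes of neutrophil precursors summed to at most 0.489 CPM in control, 1.08 to 2.78 CPM in CD11b- and 12.2 to 41.9 CPM in CD11b+ AMs. Of these, *Ltf* and *Ngp* averaged 16.9 and 3.34 CPM in CD11b+ AMs, and *Mpo* and *Elane* were at 0 in all 15 AM samples. Summed monocyte markers had 6.03 to 10.2, 11.3 to 25.4 and 85.8 to 282 CPM in the 3 groups in the same order. The lung epithelium list had 115 to 153, 504 to 602 and 1329 to 1697 CPM in these groups. Most of this came from *Epcam* (means of 15.9, 179 and 513 CPM), *Cdh1* (94.0, 271 and 344 CPM) and *Krt8* (0.160, 57.3 and 563 CPM). EpCam is a marker by which the study told AMs lacking *Zeb2*. *Sftpc*, the defining surfactant gene, had means of 13.6, 18.9 and 23.6 CPM. In each of these lists CD11b- AMs lay between control and CD11b+ AMs. The part of these markers in the result was not tested.

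By role, the mitotic cyclin and kinase list had a median log2 fold change of 0.50 in CD11b- and -0.53 in CD11b+ AMs against the shared control AMs, and the replication list had 0.03 and -0.45. The nucleotide supply list had 0.28 and -0.34, and the G1 list 0.03 and -0.11. All genes tested had medians of 0.00 and -0.01.

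**Figure D5:**
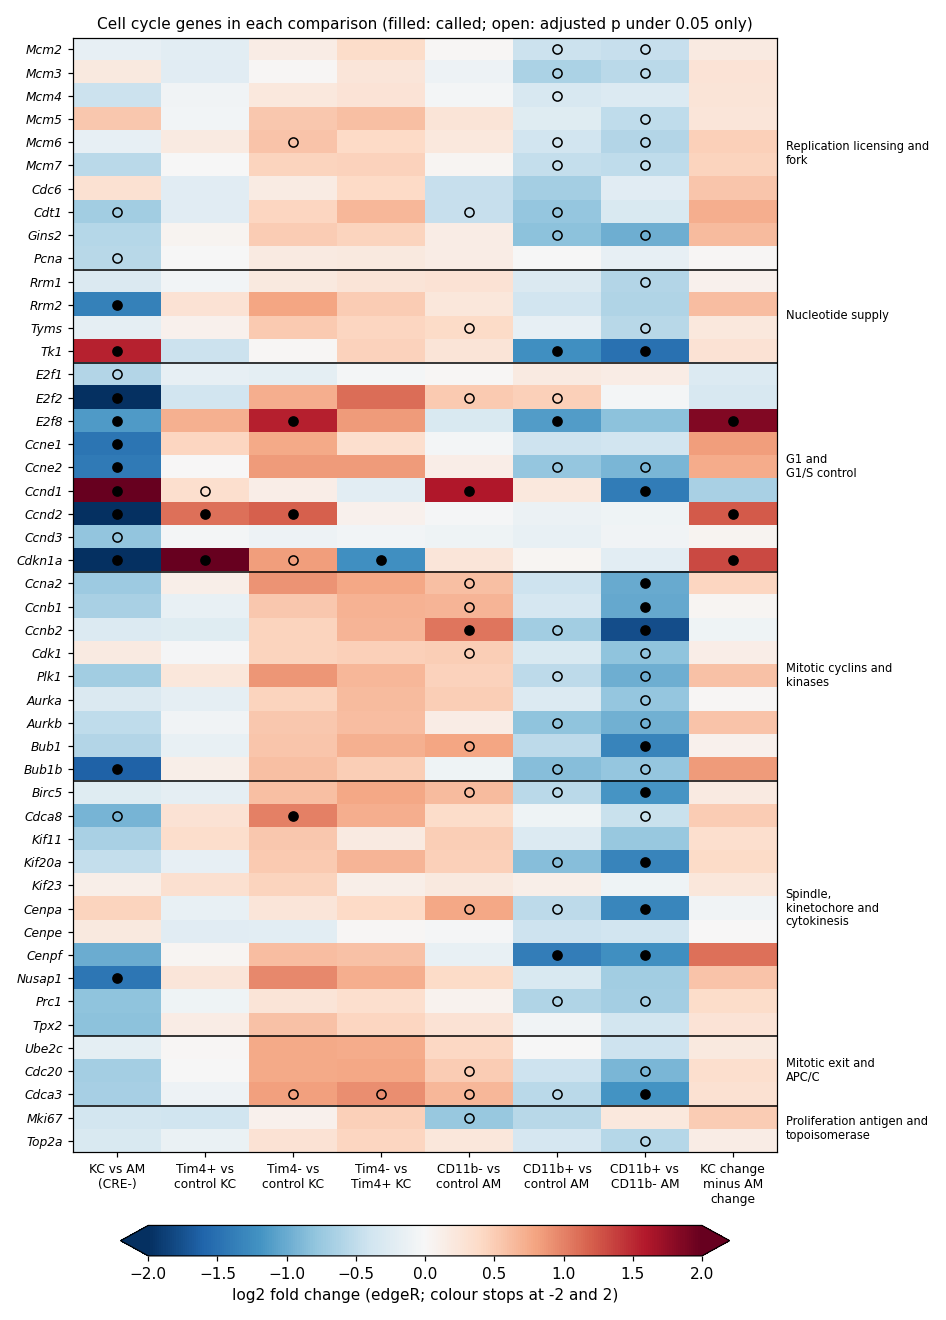
Log2 fold changes (colour, with the scale ending at -2 and 2) of the 48 genes (rows, by role) in 8 comparisons (columns); filled circles are called genes and open circles genes past the adjusted p only. The column of CD11b+ against CD11b- AMs holds 11 filled and 18 open circles, all on lower genes.

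The difference between the tissues was tested as the mean change of both CRE+ KC groups less that of both CRE+ AM groups, in which tissue and Cre line cannot be told apart. Of the 48 genes 3 were called, each with the more positive change in KCs, and none in the other direction (background 3.5% and 4.65%, or 10% and 9.52% at the adjusted p alone, which the same 3 genes passed). Unadjusted, there were 6 and 2 at p under 0.05, and limma-voom and DESeq2 called none in the other direction. The genes were *E2f8* (log2 difference 1.85, SE 0.52, adjusted p = 0.00972, edgeR), *Cdkn1a* (1.32, SE 0.21, adjusted p = 1.18e-05) and *Ccnd2* (1.23, SE 0.30, adjusted p = 0.00321), all of the G1 list. *Ccnd1* had -0.65 (adjusted p = 0.127), *Ccnd3* 0.06, *Mki67* 0.51, *Top2a* 0.15, *Cdk1* 0.13 and *Mcm5* 0.24, none of which passed. The median over the 48 genes was 0.29, compared with 0.01 over all 13294 genes tested. Without control KC replicates 1 and 2 the count was 20 (496 of all 13413 genes tested), and without control KC replicate 1 alone it was 5. Without control AM replicate 1, 1 gene was called in the other direction.

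Other genes of the cycle, on lists that share no gene with the 48, were read from the same fits. Of 38 other G2 and M genes, 7 were called lower and none higher in CD11b+ against CD11b- AMs and 24 were lower at the adjusted p (background 3.3% and 16.6%), with a median of -0.74. The largest changes among them were in *Nuf2* (-1.29), a kinetochore gene, the kinesin gene *Kif15* (-1.26) and the phosphatase gene *Cdc25c* (-1.16). In CD11b- AMs against controls 1 of these 38 genes was called higher, *Psrc1* (1.61), and 5 were higher at the adjusted p, shares near or under the background of 3.98% and 13.3%. Of 33 other S phase genes, 2 were called lower in CD11b+ than in CD11b- AMs, *Rad51ap1* (-1.23) and *Mcm10* (-1.04), and 10 were lower at the adjusted p (background as above). Of the pocket protein, E2F and G1 kinase list, *Cdk4*, the partner of the D-type cyclins, had means of 107, 104 and 41.1 CPM in control, CD11b- and CD11b+ AMs. It was lower in CD11b+ AMs than in either (log2 fold changes -1.40 and -1.35, adjusted p = 3.22e-10 and 2.33e-09, edgeR).

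Of the 5 cyclin-dependent kinase inhibitor genes tested beside *Cdkn1a*, *Cdkn2b*, which encodes p15, was called higher in Tim4+ CRE+ KCs than in controls (3.72 against 0.960 CPM, log2 fold change 1.93, SE 0.42, adjusted p = 0.00553, edgeR) and in CD11b- AMs (3.25 against 1.04 CPM, 1.64, SE 0.48, adjusted p = 0.0164). It was lower in Tim4- than in Tim4+ KCs (-1.55) and in CD11b+ than in CD11b- AMs (-1.55). Of the p53 pathway list, *Phlda3*, a target of p53 like *Cdkn1a*, had means of 1.08, 5.47 and 2.04 CPM in control, Tim4+ and Tim4- KCs. It was called higher in Tim4+ than in control KCs (2.32, SE 0.40, adjusted p = 0.00071, edgeR). In AMs it had 124, 91.6 and 38.1 CPM in control, CD11b- and CD11b+ samples, and it was called lower in CD11b+ AMs than in controls (-1.72). There the other 8 of the 9 genes tested on the list had positive fold changes, with a median of 0.70 over the list. At the adjusted p 7 were higher, and 7 lay above the controls in every sample (background 22.8% and 18.5%). No other gene of the 9 tested on that list was called in a comparison of CRE+ with control KCs. *Gadd45a*, a stress-induced growth arrest gene, was also higher in CD11b+ AMs (2.88 against controls and 2.61 against CD11b- AMs), and the p53 target *Zmat3* was higher in CD11b- AMs than in controls (1.12). Between control KCs and control AMs, 5 of the 38 other G2 and M genes were called lower in KCs, a share near the background of 12.4%. *Anln* (-2.50), *Cks1b* (-1.32) and *Spc25* (-1.21) led them. Of the 33 other S phase genes, *Wdr76* (1.13) was called higher and *Cdc45* (-1.06) lower, shares under the background of 20.9% and 12.4%. *Cdkn1c*, which encodes p57, was called higher in control KCs than in control AMs (2.98) and lower in Tim4- than in Tim4+ CRE+ KCs (-1.38).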

How the data were processed

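RNA of FACS-sorted macs was sequenced in bulk. Per the labels, the deposited files hold raw read counts per gene, which the authors made with HTSeq-count; the submitters' processing notes name Trimmomatic 0.35, TopHat2 2.1.0, SAMtools 0.1.18, FastQC 0.11.4 and mm10. The annotation and the use of strand in counting are not given in the sources used here. The 5 tally rows of each file were kept out of library sizes and tests. Counts were fitted with edgeR 4.0.16 (R 4.3.3; TMM, filterByExpr, quasi-likelihood test, Benjamini-Hochberg adjustment over all genes tested), in control samples for KCs against AMs, in 18 KC or 15 AM samples within a tissue, and in all 33 for the difference between tissues. SEs were derived from the F statistic. The code was tested on simulated data. limma 3.58.1 (voom) and DESeq2 1.42.0 were alternatives, as were RLE factors, plain library sizes, other filters, no fold threshold, other sample sets, the replicate block and leaving out each sample. Depth was 9837240 to 24332306 counts, at which 3 counts are 0.122 to 0.300 CPM. Gene positions are from GENCODE M21. The members and lists were chosen with earlier results of these data known. Named were *Zeb2*, *Mki67*, *Top2a*, *Cdk1* and *Mcm5*, the D-type cyclins and *Cdkn1a* in each comparison, the called members with the largest changes (up to 8 per direction), and up to 3 called genes of each other list; members past the adjusted p alone that are named besides were chosen after their values were seen. Same-numbered Tim4- and Tim4+ CRE+ KC samples deviated together (r of 0.112 to 0.251 in 6 of 6 pairs, from the data and not from the labels). The SEs and adjusted p-values given for this comparison come from the fit without a block. The replicate block was run as an alternative on all 18 KC samples, controls included. No other comparison met the limit of 0.1 in every pair.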

Additional observations from a re-analysis of the deposited data

Results flagged for a closer look

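Among 294 sets of values (a gene, or the sum of the 44 genes, in a group), 20 held a sample far from the others of its group. This was by Dixon's test at the 95% level (6.8%), where chance flags about 1 in 20. Of these, 5 were in Tim4+ CRE+ KC replicate 3, each the highest of its group: *Gins2* at 16.7 CPM, *Ccnb1* at 36.6 CPM, *Cdk1* at 44.8 CPM, *Aurkb* at 34.0 CPM and *Cdca3* at 11.0 CPM. In the other KC samples the highest values standing apart were *E2f8* at 6.66 CPM, *Kif11* at 17.4 CPM and *Kif23* at 76.1 CPM in control replicate 2, *Kif23* at 77.7 CPM in Tim4+ replicate 1, *Ccne2* at 12.1 CPM in Tim4- replicate 1, *Ccnb2* at 47.4 CPM in Tim4- replicate 3 and *Cdkn1a* at 47.0 CPM in Tim4- replicate 4, in which *E2f8* was the lowest at 4.05 CPM. In AMs, *Mcm6* at 112.8 CPM and *Gins2* at 12.1 CPM were high in CD11b+ replicate 3 and *Cdc6* at 16.5 CPM in control replicate 5. *Tyms* at 14.4 CPM in control replicate 4, *Ccnd2* at 207 CPM in control replicate 5, and *Cenpa* at 28.1 CPM and *Cdc20* at 17.9 CPM in CD11b- replicate 4 were low. The changes of CRE+ KCs and CRE+ AMs differed by the interaction test of edgeR for *E2f8* (log2 difference 1.85), *Ccnd2* (1.23) and *Cdkn1a* (1.32).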

How the results depend on the processing

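Over the alternatives run, none of the 36 called values changed sign, and 756 of their 829 values under an alternative kept the call, while 73 lost it; of 1296 alternatives for 53 values not called, 15 passed. Counts of members called moved by over 1.5 times as follows. With limma-voom, 16 genes were lower in control KCs than in AMs, 9 higher in Tim4- CRE+ KCs and 5 higher for KCs less AMs. Of all genes tested, 1592 of 12145, 437 of 12500 and 482 of 13294 were called in these directions. With no fold threshold, 14 were lower in control KCs, 6 higher in Tim4- KCs, 1 higher in Tim4- than Tim4+ KCs, 12 higher and 2 lower in CD11b- AMs, 1 higher and 20 lower in CD11b+ AMs, and 29 lower in CD11b+ than CD11b- AMs. With plain library sizes, which shifted the median of all genes by -0.18 there, 6 were lower in CD11b+ AMs (926 of all 11573 genes tested). In Tim4- against Tim4+ KCs, 1 gene was higher with DESeq2, with only these groups, with all 33 samples and without KC replicates 5 and 6, a setting that gave 1 in Tim4+ and 0 in Tim4- KCs. Chosen after seeing the data, leaving out control KC replicates 1 and 2 gave 29, 9, 30 and 20 (control KCs lower, Tim4+ and Tim4- KCs higher, KCs less AMs), and leaving out replicate 3 of both CRE+ KC groups gave 1 in Tim4+ KCs. With the replicate block, 8 were higher in Tim4- KCs against controls (424 of all 12500 genes tested). There 1 of 6 same-numbered pairs passed the correlation limit of 0.1, while replicates 5 and 6 of all 3 KC groups shared Y-linked counts. In Tim4- against Tim4+ KCs, where same-numbered samples deviated together, the block changed no call. Every CD11b+ sample deviated most like its own number in control and CD11b- AMs (5 of 5 pairs), a hint from the data. Leaving out 1 sample at a time gave 2 to 2 higher and 7 to 17 lower genes in control KCs, 1 to 2 higher in Tim4+ KCs, 2 to 10 in Tim4- KCs, 0 to 1 higher and 1 to 1 lower between the sorts, 2 to 2 higher in CD11b- AMs, 2 to 3 lower in CD11b+ AMs, 7 to 16 lower in CD11b+ than CD11b- AMs, and 3 to 5 higher and 0 to 1 lower for KCs less AMs. The cause of these differences was not tested. A sample held 18 to 200 counts of *E2f8* and 12 to 171 of *Cenpf*.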
